A study of Rattus norvegicus with 14 samples.

Results

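The platelet-derived growth factor (PDGF) family was followed in the rat aorta through the 6 genes that encode its ligands and receptors: Pdgfa, Pdgfb, Pdgfc and Pdgfd for the ligands, and Pdgfra and Pdgfrb for the receptors. The members were taken by gene symbol and are 6 of the 17019 genes in the processed table, each with 1 row. RNA sequencing covered the aortas of 14 male Dark Agouti rats, 1 library per rat, cut between the heart and the renal arteries. The control group held 5 untreated rats kept for 14 weeks. The uremic group held 5 rats made uremic by 5/6 nephrectomy, the removal of most kidney tissue, for 14 weeks. These rats also received vitamin D as alfacalcidol, 30 ng given 3 times a week, after 8 weeks of uremia and for the last 6 weeks. The third group, control with vitamin D, held 4 normal rats given vitamin D, whose dose and length of treatment are not given in the sources used here. Calcification in this model is said to need a diet rich in phosphate as well, and the labels do not say which rats ate it, so uremia and any difference in diet cannot be told apart. The rats' age is not given, and no label names a batch or a sequencing date.

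PDGF ligands are secreted as dimers and act on a pair of receptor tyrosine kinases. PDGF-A and PDGF-B are processed inside the cell, whereas PDGF-C and PDGF-D leave it as latent proteins that proteases outside the cell must cut. The alpha receptor, encoded by Pdgfra, binds the A, B and C chains, and the beta receptor, encoded by Pdgfrb, binds the B and D chains. In the vessel wall, endothelial PDGF-B recruits pericytes and smooth muscle cells that carry the beta receptor, while the alpha receptor marks fibroblasts of the adventitia. PDGF is known as a mitogen of smooth muscle cells and lowers their contractile gene programme in culture.

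In uremic aortas, 3 of the 4 ligand transcripts were higher than in control aortas, where 11.4% of all genes tested were called higher. Pdgfa had 2.32 times the control mean, Pdgfd 2.05 times, and Pdgfc, close to the limit of detection in control rats, was higher in every uremic rat than in any control rat. Pdgfc kept its call whichever rat was left out, but it rests on few reads and entered the test through uremic libraries. Pdgfd, too, needed uremic libraries to enter the test. Pdgfa kept the call in 3 of 10 omissions and Pdgfd in 5 of 10. Pdgfd is not called in the authors' deposited table, and Pdgfa was not called when the level of brown fat markers entered the fit. Pdgfb and Pdgfrb did not pass the test, and neither did Pdgfra, although its mean was 1.58 times that of control. Vitamin D in normal rats gave no called difference in the 5 members that could be tested, beside 0.134% of all genes tested.

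Processed values are fragments scaled by transcript length and sequencing depth (FPKM), which can be compared between genes because they are scaled by length. Whole reads could be recovered from the FPKM steps of 10917 genes, all 6 members included, and over these genes the libraries held 1409674 to 2124792 reads in control, 1331432 to 2743104 in control with vitamin D and 1644791 to 4540548 in uremic rats. These read numbers are the smallest that match the steps. Smooth muscle markers were abundant in every library, with a summed level of 9403 to 29533 FPKM over 10 genes. Fat markers were also present. The summed level of 8 white adipocyte markers, Pnpla2 listed at 0, lay between 1068 and 7125 FPKM, and that of 7 brown adipocyte markers, Elovl3 listed at 0, between 129 and 1553 FPKM. Endothelial markers summed to 150.4 to 381 FPKM over 12 genes, with Robo4 listed at 0. In bulk tissue, fewer cells of a type and less RNA per cell cannot be told apart.

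In the deposited table, which uses the rat build rn5, Pdgfa lies on chr12:19727671-19748063, Pdgfb on chr7:121205504-121223140, Pdgfc on chr2:199362290-199537365, Pdgfd on chr8:4454509-4682165, Pdgfra on chr14:35356433-35409311 and Pdgfrb on chr18:55596757-55637692. Pdgfd is listed at the same locus as Ddi1, a gene inside it, which stood at 0 FPKM in every library. How the authors' counting used strand is not given in the sources used here. RefSeq's current rat assembly, GRCr8, also puts the noncoding gene LOC134481161 over Pdgfa and the small nuclear RNA gene Rnu7-62 over Pdgfc, and reads of these would not be told apart from the member's own.

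Promoter sequence of RefSeq (GRCr8) was found for 5 of the 6 members. The 4 ligand promoters are shown, because 3 of these transcripts were higher in uremia while Pdgfb was not called. Each line gives the 250 bases before the annotated start, 5′ to 3′ on the strand of the gene. Capitals mark a GC box, GGGCGG on either strand, the element bound by Sp1-like factors. The windows are chr12:20759116-20759365 on the plus strand for Pdgfa, chr7:113438344-113438593 on the minus strand for Pdgfb, chr2:168614918-168615167 on the plus strand for Pdgfc and chr8:11773258-11773507 on the plus strand for Pdgfd.
Pdgfa: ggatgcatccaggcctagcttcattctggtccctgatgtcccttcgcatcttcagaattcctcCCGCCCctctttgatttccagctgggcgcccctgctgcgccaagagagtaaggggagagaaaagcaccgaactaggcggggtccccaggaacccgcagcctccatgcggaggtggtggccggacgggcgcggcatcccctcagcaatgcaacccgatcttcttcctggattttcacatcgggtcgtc
Pdgfb: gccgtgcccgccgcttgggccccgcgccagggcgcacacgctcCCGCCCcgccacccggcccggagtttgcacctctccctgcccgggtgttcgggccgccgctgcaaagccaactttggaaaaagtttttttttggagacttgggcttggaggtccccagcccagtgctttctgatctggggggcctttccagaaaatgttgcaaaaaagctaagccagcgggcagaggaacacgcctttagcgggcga
Pdgfc: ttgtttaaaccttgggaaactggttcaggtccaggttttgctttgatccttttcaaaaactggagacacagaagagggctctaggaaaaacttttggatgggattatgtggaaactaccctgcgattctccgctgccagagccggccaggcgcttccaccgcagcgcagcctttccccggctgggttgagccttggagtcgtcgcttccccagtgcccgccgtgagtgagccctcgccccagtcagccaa
Pdgfd: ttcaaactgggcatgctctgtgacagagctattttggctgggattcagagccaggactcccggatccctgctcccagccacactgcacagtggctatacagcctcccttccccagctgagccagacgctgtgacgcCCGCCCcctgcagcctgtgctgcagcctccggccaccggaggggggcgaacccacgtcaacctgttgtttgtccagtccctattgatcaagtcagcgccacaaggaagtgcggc
A GC box was found 187 to 182 bases before the start of Pdgfa, 207 to 202 before that of Pdgfb and 114 to 109 before that of Pdgfd, and none in the Pdgfc window. Of 33469 RefSeq promoter windows of this length, 30.5% hold one, so the match is common. Both Pdgfa and Pdgfd, which were called, and Pdgfb, which was not, carry it. The alpha receptor window held 1 AP-1 element, TGANTCA, 35 to 29 bases before the start, a motif in 6.34% of windows. No ligand window held it. TATAAA (12.9% of windows), the EGR1 motif GCGNGGGCG (4.29%), the CArG box bound by serum response factor (1.5%) and the vitamin D response element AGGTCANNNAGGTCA (0.0209%) were searched on both strands and matched none of the 5 windows. Where motifs matched, they overlapped no other motif. The share of G and C was 60.8% for Pdgfa, 63.6% for Pdgfb, 56.0% for Pdgfc, 61.6% for Pdgfd and 47.2% for Pdgfra. A match describes letters in the window and is not evidence of binding. The start used for Pdgfc lies 1759 bases inside the annotated edge of the gene, so other starts exist.

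Pdgfa, whose product is the PDGF-A chain, was the most abundant ligand in every group. In control aortas its level was 67.8 FPKM in rat 41, 59.6 in rat 42, 61.6 in rat 43, 141 in rat 44 and 45.5 in rat 46. In uremic aortas it was 329.9 FPKM in rat 9, 113 in rat 17, 148 in rat 20, 80.7 in rat 27 and 197 in rat 28. Rat 44 stood above the other 4 control rats, and uremic rats 17 and 27 lay below it, so the groups overlapped. All 5 uremic rats exceeded the control median. The means were 174 ± 97.3 FPKM (SD, n = 5) in uremia and 75.0 ± 37.5 FPKM (SD, n = 5) in control. On the log2(FPKM + 1) scale the difference was 1.15 (SE 0.36, 95% interval 0.38 to 1.91, limma adjusted p = 0.0361). An exact 2-sided permutation test of Pdgfa alone gave p = 0.0317, not adjusted, where the smallest p the design allows is 0.00794. In the authors' deposited table the q value of this comparison is 0.000653. The call depended on single rats: leaving out rat 41, 42, 43, 46, 9, 20 or 28 took the adjusted p to between 0.0625 and 0.0806, with differences of 0.87 to 1.16. It also missed the threshold with no filter on low values (adjusted p = 0.0588) and with robust shrinkage (0.0507).

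Against control with vitamin D, the difference in Pdgfa was of like size. The 4 rats of that group had 63.4, 90.8, 30.6 and 69.3 FPKM, in the order of rats 36, 37, 38 and 39. Of the 5 uremic rats, 4 lay above all of them, and rat 27 lay below rat 37. The mean was 63.5 ± 24.9 FPKM (SD, n = 4), and the uremic mean was 2.73 times as high. The log2 difference was 1.37 (SE 0.39, 95% interval 0.52 to 2.22, limma adjusted p = 0.0395). The exact permutation test gave p = 0.0317, and the q value in the authors' deposited table is again 0.000653. Without rat 9, 20, 28, 36, 38 or 39 the adjusted p was between 0.0557 and 0.117, and with no filter on low values it was 0.0654. Brown fat markers moved with the groups here. Their summed level was 129 to 590.3 FPKM in uremic rats and 411 to 1553 FPKM in control rats with vitamin D. Of the 6 tested markers, 5 were called lower in uremia, or 1 without rat 38, beside 6.03% of all genes tested. With the brown fat level as a covariate in a fit of all 3 groups, the Pdgfa difference was 0.16 with an adjusted p of 0.905, and against control it was 0.71 with an adjusted p of 0.117.

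**Figure D1:**
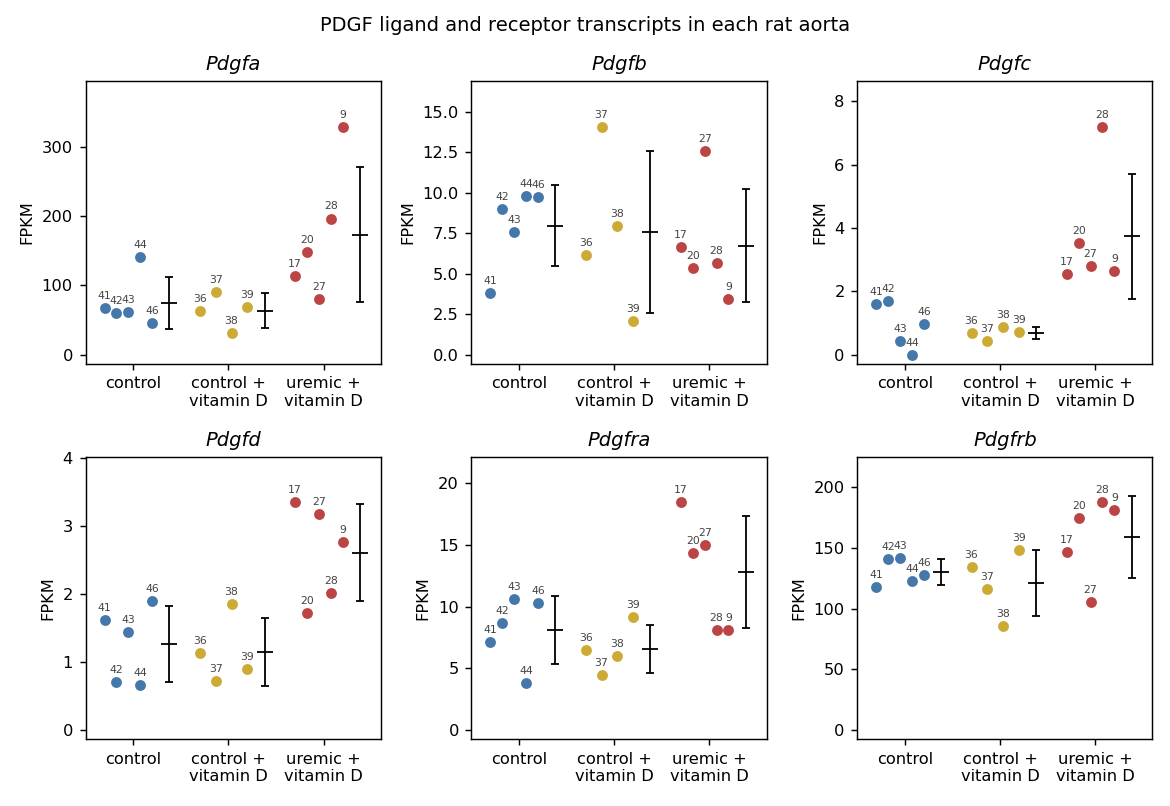
FPKM of each PDGF ligand and receptor in each aorta (points, numbered by rat) for 5 control, 4 control with vitamin D and 5 uremic rats; bars show the mean and SD, left out for Pdgfc in control, where rat 44 is listed at 0. The uremic points of Pdgfc all lie above those of both other groups, while those of Pdgfb lie among them.

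Pdgfb, the ligand that endothelial cells and platelets supply, showed no called difference. In control aortas its level was 3.79, 8.99, 7.60, 9.82 and 9.72 FPKM in rats 41, 42, 43, 44 and 46. In uremic aortas it was 3.44, 6.64, 5.36, 12.6 and 5.65 FPKM in rats 9, 17, 20, 27 and 28. Of the uremic rats, 4 lay below the control median and rat 27 lay above every control rat. The log2 difference was -0.26 (SE 0.29, 95% interval -0.88 to 0.37, limma adjusted p = 0.564). Control rats with vitamin D ranged from 2.09 FPKM in rat 39 to 14.1 in rat 37, wider than either other group, with 6.16 in rat 36 and 7.96 in rat 38. The uremic difference from that group was -0.04 (95% interval -0.95 to 0.87, limma adjusted p = 0.966). The intervals reach well below and above 0, so equal levels were not shown. The platelet markers Gp1bb and Gp5 were listed at 0 in every library, and none of the 3 platelet markers tested was called.

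Pdgfc, a latent ligand of the alpha receptor, had the clearest separation of the 6 members. Control aortas had 1.61 FPKM in rat 41, 1.68 in rat 42, 0.430 in rat 43, 0 in rat 44 and 0.969 in rat 46. Uremic aortas had 2.63 FPKM in rat 9, 2.54 in rat 17, 3.51 in rat 20, 2.80 in rat 27 and 7.20 in rat 28. Control rats with vitamin D had 0.673, 0.431, 0.885 and 0.710 FPKM in rats 36, 37, 38 and 39. No uremic rat overlapped with a rat of the other groups, and rat 28 stood far above the other uremic rats. These levels rest on few reads, 15 over all control libraries, 80 over the uremic ones and 9 over those of control with vitamin D. The log2 difference was 1.3 against control (SE 0.31, 95% interval 0.64 to 1.97, limma adjusted p = 0.00916). It was, relative to control with vitamin D, 1.43 (SE 0.25, 95% interval 0.88 to 1.97, limma adjusted p = 0.00504). The exact permutation test gave p = 0.00794 in both, the smallest possible. The q values in the authors' deposited table are 0.0120 and 0.0198. All 5 uremic libraries but only 2 control libraries and no library of control with vitamin D reached 1 FPKM, so Pdgfc entered these tests through the group where it was high. Pdgfc was called without any 1 of the rats, with adjusted p from 0.00480 to 0.0246 over both comparisons. Rat 28 was not needed for the call, which had an adjusted p of 0.0213 against control without it. With a pseudocount of 0.01 in place of 1 the adjusted p against control was 0.0835, and with the brown fat covariate that against control with vitamin D was 0.0676.

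Pdgfd, a latent ligand of the beta receptor, was also low and also higher in uremia. Control aortas had 1.62, 0.708, 1.45, 0.665 and 1.90 FPKM in rats 41, 42, 43, 44 and 46. Uremic aortas had 2.77, 3.35, 1.72, 3.18 and 2.02 FPKM in rats 9, 17, 20, 27 and 28. Control rats with vitamin D had 1.13, 0.725, 1.86 and 0.895 FPKM in rats 36, 37, 38 and 39. Uremic rat 20 lay within the range of both other groups, and the other 4 lay above every rat of these. The reads behind these levels numbered 22 in control, 69 in uremia and 19 in control with vitamin D. All 5 uremic libraries reached 1 FPKM, but only 3 of control and 2 of control with vitamin D. Pdgfd thus needed libraries of the group where it was high to enter these tests. The means were 2.61 ± 0.713 FPKM (SD, n = 5) in uremia, 1.27 ± 0.556 (SD, n = 5) in control and 1.15 ± 0.501 (SD, n = 4) in control with vitamin D. The log2 difference was 0.68 against control (SE 0.21, 95% interval 0.23 to 1.14, limma adjusted p = 0.0354, exact permutation p = 0.0159). The difference from control with vitamin D was 0.75 (SE 0.21, 95% interval 0.28 to 1.21, limma adjusted p = 0.0393, exact permutation p = 0.0238). Pdgfd has a q value of 1 for both comparisons in the authors' deposited table, so it was not called there. Without rat 42, 44, 9, 17 or 27 the adjusted p against control was 0.0659 to 0.0857. Without rat 9, 17, 27, 28, 36, 37 or 39 that against control with vitamin D was 0.0529 to 0.0887. Scaling moved the call as well: with equal totals the adjusted p was 0.0573 and 0.0615, and with quantile scaling 0.111 and 0.115, in the same order of comparisons. In the comparison with vitamin D it was 0.0572 with library weights and 0.0781 with voom on the recovered reads.

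Pdgfra, the alpha receptor, had higher means in uremia without passing the test. Control aortas had 7.16, 8.70, 10.6, 3.79 and 10.3 FPKM in rats 41, 42, 43, 44 and 46. Uremic aortas had 8.11, 18.4, 14.3, 15.0 and 8.10 FPKM in rats 9, 17, 20, 27 and 28. Control rats with vitamin D had 6.51, 4.50, 6.03 and 9.18 FPKM in rats 36, 37, 38 and 39. Uremic rats 17, 20 and 27 lay above every control rat, and rats 9 and 28 lay within the control range. The mean was 12.8 ± 4.55 FPKM (SD, n = 5) in uremia and 8.11 ± 2.78 (SD, n = 5) in control, with a log2 difference of 0.60 (SE 0.27, 95% interval 0.01 to 1.19, limma adjusted p = 0.138). Set against control with vitamin D, at 6.56 ± 1.95 FPKM (SD, n = 4), the difference was 0.84 (SE 0.26, 95% interval 0.27 to 1.40, limma adjusted p = 0.0539, exact permutation p = 0.0476). Leaving out rat 9, 28 or 39 gave a call in that comparison, with adjusted p of 0.0358 to 0.0422. In the authors' deposited table Pdgfra has q values of 0.00357 against control and 0.000653 against control with vitamin D. At a threshold of 0.05 the authors' deposited table thus calls Pdgfra and not Pdgfd, and the limma fit the reverse. That table has 11.2% of all rows under this threshold against control and 9.58% against control with vitamin D.

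Pdgfrb, the beta receptor, was the most abundant member in control aortas and varied least. Control aortas had 118, 141, 141, 122 and 128 FPKM in rats 41, 42, 43, 44 and 46, a coefficient of variation of 8.14%. Uremic aortas had 181, 147, 174, 105 and 187 FPKM in rats 9, 17, 20, 27 and 28. Control rats with vitamin D had 134, 116, 85.6 and 148 FPKM in rats 36, 37, 38 and 39. Of the uremic rats, 4 lay above every control rat and rat 27 lay below every control rat. The log2 difference was 0.26 against control (SE 0.15, 95% interval -0.06 to 0.59, limma adjusted p = 0.239) and 0.39 against control with vitamin D (SE 0.20, 95% interval -0.05 to 0.83, limma adjusted p = 0.233). Without rat 27 the difference from control was 0.40 with an adjusted p of 0.0187. Rat 27 had the most reads of all libraries, 4540548, carries 2 index sequences in its label, and had the highest brown fat marker level of the uremic rats, 590.3 FPKM. In the authors' deposited table the q values are 0.370 and 0.221.

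**Figure D2:**
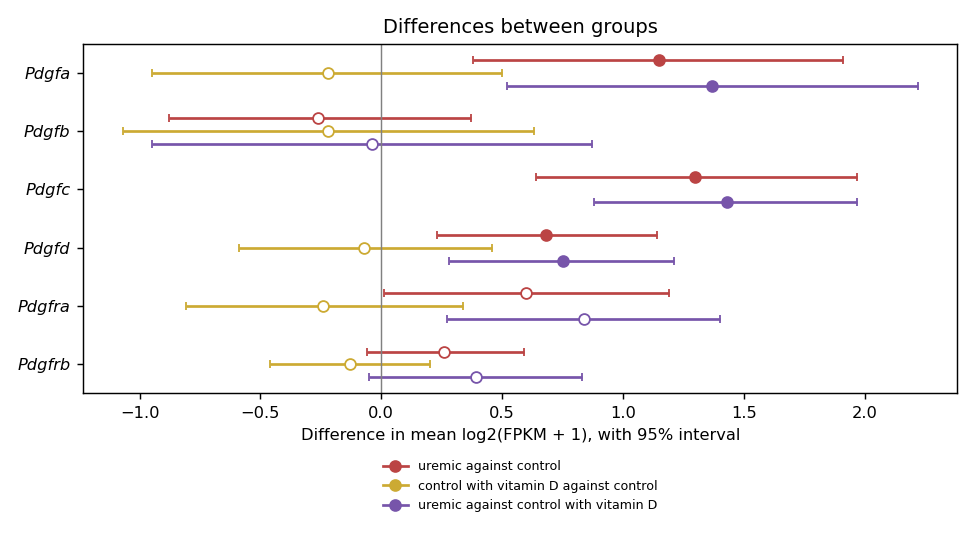
Difference in mean log2(FPKM + 1) with its 95% interval for each member in the 3 comparisons; filled points have an adjusted p under 0.05, and Pdgfc was not tested between the 2 groups without uremia. Pdgfa, Pdgfc and Pdgfd are filled in both comparisons with uremic rats, and every interval of control with vitamin D against control spans 0.

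Counted over the family, 3 of 6 members were called higher in uremic than in control aortas, beside 21.9% of the 9957 genes tested, 11.4% higher and 10.5% lower. The members' median log2 difference was 0.64 and that of all genes 0.00. Leaving out 1 rat at a time left 1 to 3 of 6 called, with Pdgfc alone called without rat 9 or 42. Likewise 3 of 6 were called higher than in control with vitamin D, where 13.2% of 9916 genes were called, 7.19% higher and 6.03% lower. The medians were 0.79 for the members and 0.01 for all genes. There, every omission of a rat lowered the count, to 2 of 6 or, without rat 36, to 1, again Pdgfc. The uremic libraries enter both comparisons, so the counts are not independent. Pdgfc and Pdgfd are in both counts although they passed the filter on low values only with their uremic libraries. Apart from them, Pdgfa was the member called in both comparisons. With 6 genes chosen by name, these counts describe the family and do not set it apart from other gene groups. Scaling every library to the same total FPKM lowered the median of all genes by 0.10 and 0.13. It moved the share of called genes that were higher from 52.0% to 34.8% against control and from 54.4% to 33.8% against control with vitamin D. Groups did not overlap in 1 member of 6, Pdgfc, in either comparison, and Pdgfc passed the filter through the group where it was high. Among all genes tested, 8.38% were higher without overlap than in control and 7.06% than in control with vitamin D.

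The comparison of normal rats with and without vitamin D asks what the drug did without uremia. Pdgfc was not tested in it, because too few libraries reached 1 FPKM. None of the 5 members tested by limma was called, where 0.134% of 9693 genes, 13 in number, were called and 1782 had an unadjusted p under 0.05, or 18.4%. Limma voom on the recovered reads called 11 genes. The differences on the log2 scale were -0.22 for Pdgfa (95% interval -0.95 to 0.50), -0.22 for Pdgfb (-1.07 to 0.63) and -0.07 for Pdgfd (-0.59 to 0.46). For the receptors they were -0.24 for Pdgfra (-0.81 to 0.34) and -0.13 for Pdgfrb (-0.46 to 0.20). The adjusted p ranged from 0.674 for Pdgfra to 0.913 for Pdgfd. No exact permutation p of the 6 members was below 0.452, and no q value of theirs in the authors' deposited table is below 0.301, where 5.2% of all rows are under 0.05. The intervals include moderate differences in either direction, so like levels with and without vitamin D were not shown.

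**Figure D3:**
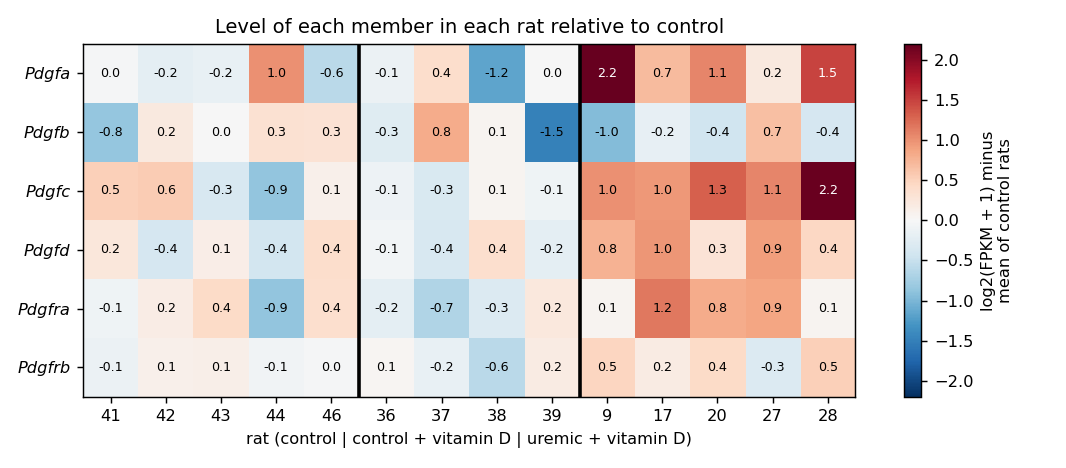
Level of each member in each rat, as log2(FPKM + 1) minus the mean of the control rats, with vertical lines between the groups. Pdgfc and Pdgfd are above the control mean in all 5 uremic rats, while Pdgfb is above it only in rat 27 of the uremic group.

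In every group Pdgfrb and Pdgfa were the most abundant members and Pdgfc and Pdgfd the least abundant. In control aortas Pdgfrb came first, then Pdgfa at 75.0 FPKM, then Pdgfra at 8.11 and Pdgfb at 7.98, and last Pdgfd and Pdgfc. Pdgfrb and Pdgfa overlapped in range, with Pdgfrb higher in 4 of 5 rats. Pdgfra and Pdgfb did not differ beyond their spread, nor did Pdgfd and Pdgfc. The steps from Pdgfa to Pdgfra and from Pdgfb to Pdgfd showed no overlap. Set among all genes with a level above 0 in control, Pdgfrb lay above 95.5% and Pdgfa above 92.1%, while Pdgfra lay above 53.2%, Pdgfb above 52.9%, Pdgfd above 24.7% and Pdgfc above 22.2%. In control rats with vitamin D, Pdgfb came before Pdgfra with overlapping ranges, and the order was otherwise that of control. In uremia Pdgfa had the highest mean, with Pdgfrb second, but Pdgfa was the higher of the pair in only 2 of 5 rats. Pdgfc came before Pdgfd there, also in only 2 of 5 rats.

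Balances between members followed from these levels and are given as descriptions. Pdgfa made up 78.3% to 93.1% of the summed ligand FPKM in control rats, 74.1% to 94.9% in control rats with vitamin D and 81.3% to 97.4% in uremic rats. The ratio of Pdgfa to Pdgfrb ran from 0.357 to 1.15 in control, from 0.357 to 0.783 with vitamin D and from 0.765 to 1.82 in uremia. The latent Pdgfc and Pdgfd summed to 0.665 to 3.23 FPKM in control, 1.16 to 2.75 with vitamin D and 5.24 to 9.21 in uremia. In this sum the uremic rats did not overlap with the others. Among all genes tested, 8.38% were higher without overlap than in control and 7.06% than in control with vitamin D. Both ligands rest on few reads and passed the filter on low values only with uremic libraries. Each was a small share of the ligand sum in control as well as in uremia. Pdgfc made up 0% to 2.37% in control rats and 0.777% to 3.40% in uremic rats. Pdgfd made up 0.440% to 3.27% and 0.816% to 3.20%. The ratio of Pdgfra to Pdgfrb was 0.0310 to 0.0807 in control, 0.0388 to 0.0704 with vitamin D and 0.0432 to 0.142 in uremia. Uremic rats were split here. Rats 9 and 28 had ratios of 0.0448 and 0.0432, rats 17 and 27 had 0.126 and 0.142, and rat 20 had 0.0823.

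Within groups, rats with more Pdgfa tended to have less Pdgfra. Rat 9 had the highest Pdgfa of the uremic rats and rat 28 the next, and both had the lowest Pdgfra of that group. Control rat 44 had the highest Pdgfa and the lowest Pdgfra of control, and rat 37 stood in the same position among the rats with vitamin D. Over all 14 libraries, with each group's mean removed, Pearson's r between Pdgfa and Pdgfra was -0.72 and Spearman's rho -0.61. Without rats 44 and 9, the farthest from the median, r was -0.48. Pdgfa also ran opposite to Pdgfd (r = -0.62, rho = -0.64, and -0.72 without the same rats) and along with Pdgfrb (r = 0.60, rho = 0.56, and 0.76). These 3 were the largest of the 15 member pairs by the size of r. The points share libraries and depth: Pdgfa had r = -0.64 and rho = -0.49 with the number of recovered reads.

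The members also ran with markers of cell types. Each member was set beside all 17 lists, and the pairs given here are a selection. Pdgfb followed the summed level of 12 endothelial markers (r = 0.83, rho = 0.88, and 0.74 without rats 37 and 39) over 14 libraries with group means removed. Pecam1 gave 34.1% of that sum. Pdgfb also had r = 0.82 with the related receptor kinases, -0.70 with smooth muscle markers and 0.65 with VEGF ligands. With white and brown adipocyte markers it had 0.63 and 0.60. Pdgfa followed the sum of 10 pericyte markers (r = 0.83, rho = 0.81, and 0.68 without rats 44 and 9), of which Des gave 58.5% and Mcam 33.6%, genes that smooth muscle also expresses. With the smooth muscle list itself Pdgfa had r = 0.19. Pdgfra followed the fibroblast list (r = 0.62, rho = 0.53, and 0.39 without rats 28 and 44). It ran more strongly opposite to the heart muscle list (r = -0.78, rho = -0.80, and -0.75 without the same rats), whose summed level was low. Pdgfrb ran opposite to endothelial markers (r = -0.73, rho = -0.71, and -0.65 without rats 27 and 38). With the pericyte list Pdgfrb had r = 0.54, and 0.01 without these rats. With the smooth muscle list it had 0.25 and -0.06. With brown adipocyte markers Pdgfrb had r = -0.69, and -0.21 without these rats. Pdgfa had -0.61 with them, and -0.62 without rats 44 and 9. The part of cell make-up in the differences between groups was not tested. Brown fat markers moved with the groups, so with that covariate fat content and group cannot be told apart.

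Other transcripts with the most similar pattern over the 14 libraries were looked for among 9294 genes with a mean of at least 1 FPKM in every group, by the mean absolute difference in centred log2(FPKM + 1). For Pdgfa they were Wnk4 (0.25), Igfbp2 (0.27) and Haus7 (0.32), where the median gene had 0.73. Wnk4, a kinase that regulates salt transport, averaged 5.55 FPKM in control, 6.04 with vitamin D and 18.2 in uremia. For Pdgfb they were Calcrl (0.28), Tspan13 (0.28) and Dll4 (0.29), with a median gene at 0.56. Calcrl and Dll4, an adrenomedullin receptor component and a Notch ligand, are both known from endothelial cells. For Pdgfc they were Sfrp4 (0.18), Folr2 (0.30) and Sulf2 (0.32), with a median gene at 0.69. Sfrp4, a secreted Wnt antagonist, averaged 16.9 FPKM in control and 39.5 in uremia. For Pdgfd they included Pla1a (0.18) and Zfp521 (0.19), with a median gene at 0.44. For Pdgfra they included Scara5 (0.18) and Lyve1 (0.21), with a median gene at 0.50. Scara5, a ferritin receptor, is also a fibroblast marker, whereas Lyve1 is known from lymphatic endothelium and some macrophages. Scara5 was 1.46 times as high in uremia as in control, not called. Of 10 tested fibroblast markers, 5 were called lower, beside 10.5% of all genes tested. For Pdgfrb they were Itm2c (0.08), Vstm4 (0.11) and Cacna2d2 (0.13), with a median gene at 0.33. Distances are small for a member that varies little, so they should be read beside the median gene of the same member.

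**Figure D4:**
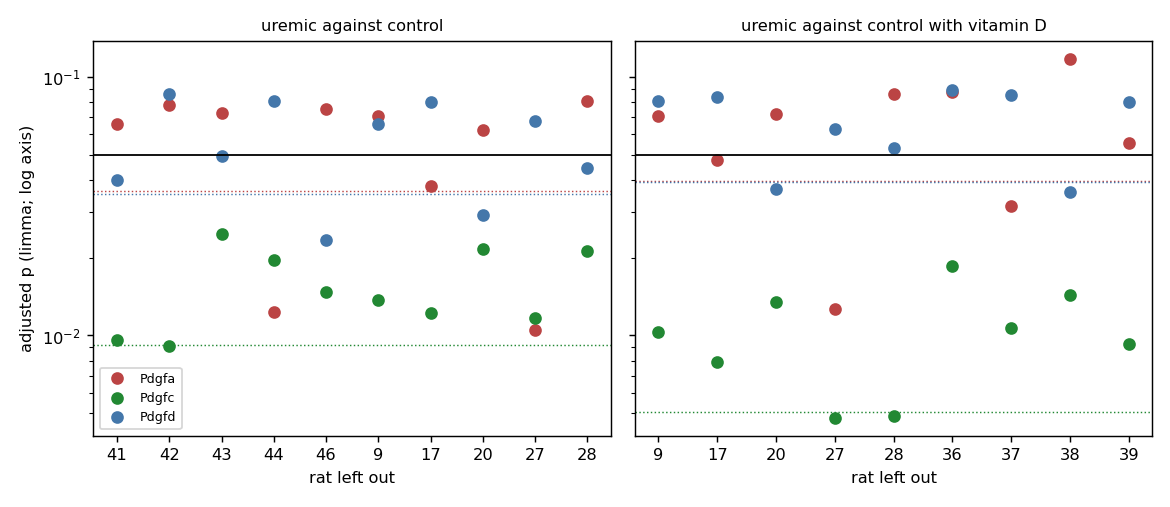
Adjusted p (log axis) of Pdgfa, Pdgfc and Pdgfd when each rat named on the horizontal axis is left out, against control and against control with vitamin D; the solid line is 0.05 and dotted lines show the value with all rats. Pdgfc stays below the line in all 19 omissions, whereas Pdgfa crosses it in 13 and Pdgfd in 12.

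Of 10 tested genes of PDGF processing and activation, 4 were higher and 1 lower in uremia than in control, where 11.4% of all genes tested were higher and 10.5% lower, with a median log2 difference of 0.50 beside 0.00 for all genes. Plat, tissue plasminogen activator, which cuts PDGF-C, averaged 82.2 ± 17.9 FPKM (SD, n = 5) in uremia and 35.1 ± 6.74 (SD, n = 5) in control (limma adjusted p = 0.000435). Plau, urokinase, which cuts PDGF-D, averaged 2.79 ± 0.929 and 1.03 ± 0.236 FPKM (limma adjusted p = 0.00563). Plaur, its receptor, averaged 12.8 ± 5.34 and 3.27 ± 0.865 FPKM (limma adjusted p = 0.00102). Plg, the gene of plasminogen, was the 1 that was lower, at 0.445 times control, and it was not called without rat 41, 42, 46 or 28. Relative to control with vitamin D, 4 of 10 were higher and none lower, beside 7.19% and 6.03% of all genes, with a median of 0.59. Of these, Pcsk6, a proprotein convertase, was 2.01 times as high, Plau 2.90 times and Plat 1.67 times. The other was Serpinf2, the plasmin inhibitor, which was at 0 to 0.444 FPKM in control with vitamin D and 0.628 to 1.36 FPKM in uremia, so that it entered the test only through uremic libraries. Plau, at 0.672 to 1.44 FPKM in control with vitamin D, also needed uremic libraries to pass the filter. Apart from these, Pcsk6 and Plat were higher. Without rat 36, 1 was called in that comparison. Furin, the convertase that processes PDGF-A and PDGF-B, averaged 24.7 FPKM in uremia and 23.8 in control (limma adjusted p = 0.875).

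Of 29 tested signalling genes downstream of the receptors, 2 were higher and 1 lower in uremia than in control, beside 11.4% and 10.5% of all genes tested, with a median of 0.08. Rasa1, a Ras GTPase-activating protein that docks on the beta receptor, was 2.54 times as high (limma adjusted p = 0.000256), and the adaptor Shc1 1.41 times (adjusted p = 0.0267). The kinase Src was at 0.501 times control (adjusted p = 0.00605). Single rats moved these counts between 1 and 3 in either direction. In the comparison with normal rats on vitamin D, Rasa1 was higher (2.03 times) and Akt2, a kinase of the survival pathway, lower (0.626 times) of the list, beside 7.19% and 6.03% of all genes, with a median of 0.01. Akt2 was not called without rat 9, 17, 28, 36, 38 or 39. Of 9 tested binding proteins and co-receptors, Nrp2 was the 1 called, at 1.65 times control, beside 21.9% of all genes, and none was called against control with vitamin D. The medians of that list were 0.06 and 0.19.

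Receptor brakes are genes that restrain receptor tyrosine kinases or the pathways below them. Of 11 tested, 7 were higher and 1 lower in uremia than in control, beside 11.4% and 10.5% of all genes tested, with a median of 0.82. Spry4 and Spred1, inhibitors of Ras signalling, were 2.54 and 2.53 times as high (limma adjusted p = 6.78e-05 and 0.00201). Ptprj, a phosphatase that acts on the beta receptor, was at 0.561 times control (limma adjusted p = 0.00149). The number called higher was between 6 and 8 when any 1 rat was left out. Compared with control with vitamin D, 4 brakes were higher and none lower, beside 7.19% and 6.03% of all genes, with a median of 0.37, led by Spry1 (2.97 times), Spry4 (2.02 times) and Dusp6, a phosphatase of ERK (2.30 times).

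Of 12 tested growth factor induced genes, 6 were higher and 2 lower in uremia than in control, beside 11.4% and 10.5% of all genes tested, with a median of 0.66. Egr2 was 5.83 times as high (limma adjusted p = 0.000226), Ccl2, a chemokine for monocytes, 12.5 times (0.000513) and Fosl1 8.35 times (0.000923). Fosl1, at 2.86 to 11.8 FPKM in uremia and 0 to 2.02 in control, passed the filter through its uremic libraries. The classical early genes Fos and Egr1 were not called, with adjusted p of 0.913 and 0.957. Leaving out rat 42, 9, 20 or 28 left 4 genes higher. Against control with vitamin D, 6 were higher and 1 lower, beside 7.19% and 6.03% of all genes, with a median of 0.97, led by Junb (3.44 times), Egr2 (4.88 times) and Ier3 (2.86 times). Without rat 38, 2 were higher, and without rat 37, 9. These genes answer to many stimuli besides PDGF.

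Of 5 VEGF ligands, which share the cystine knot fold of PDGF, 2 were higher in uremia than in control, beside 11.4% of all genes tested, with a median of 0.25. Figf, the gene of VEGF-D, was 3.33 times as high (limma adjusted p = 0.000474) and Pgf, placental growth factor, 2.38 times (adjusted p = 0.00576). Both were higher than in control with vitamin D as well, at 3.31 and 2.80 times, and Vegfb was lower at 0.616 times, beside 7.19% of all genes higher and 6.03% lower, with a list median of 0.15. Vegfb was not called without rat 9 or 36. Figf, at 2.46 to 3.55 FPKM in uremia and 0.590 to 1.44 in control, passed the filter in both comparisons through its uremic libraries. Of the related receptor kinases, Csf1r, the receptor for macrophage colony stimulating factor, was the 1 called of 5 tested against control, at 2.35 times, with a median of 0.14, a share near the 21.9% called of all genes. It was also the 1 called of 4 against control with vitamin D, at 2.63 times, with a median of 0.34, beside 13.2% of all genes. Csf1r is a macrophage marker as well.

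**Figure D5:**
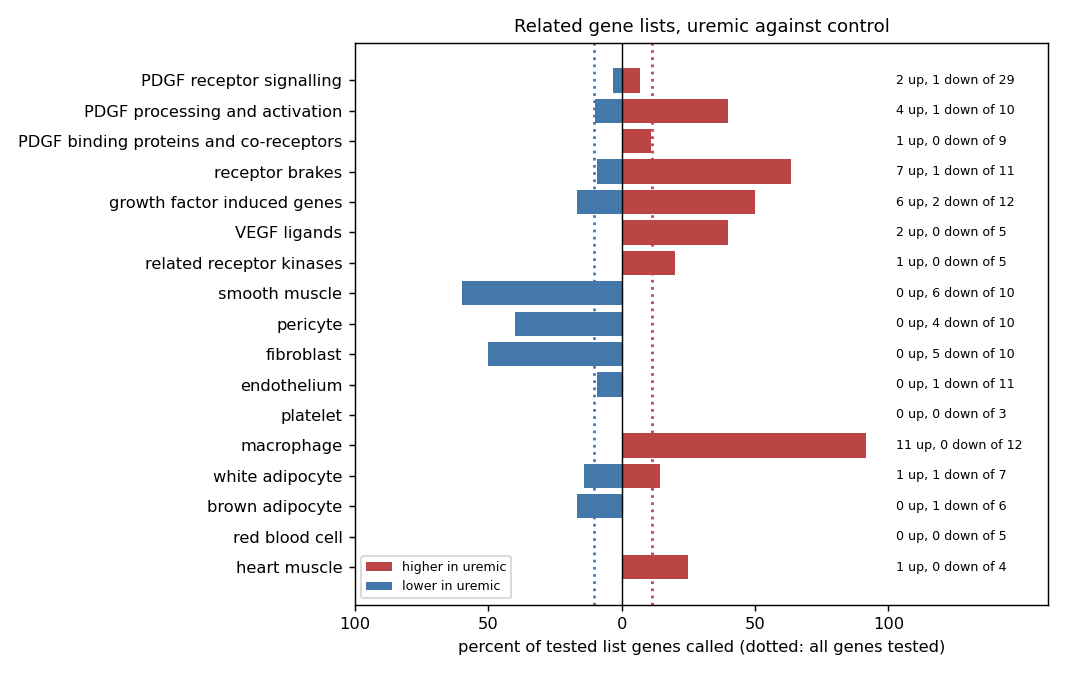
Share of the tested genes of each list called higher (right) or lower (left) in uremic than in control aortas, with the share of all 9957 genes tested as dotted lines and the counts at the right. Receptor brakes, growth factor induced genes and macrophage markers have the largest shares called higher, and smooth muscle, fibroblast and pericyte markers the largest shares called lower.

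Smooth muscle cells, pericytes and fibroblasts carry PDGF receptors, and among all genes tested 10.5% were lower in uremia than in control. Smooth muscle markers were lower in 6 of 10 tested genes with none higher (median -0.81), and their summed level was 9403 to 20257 FPKM beside 21169.7 to 29533 in control. Myh11, smooth muscle myosin, was at 0.486 times control, Cnn1 at 0.535 times and Synpo2 at 0.585 times. Of 10 pericyte markers 4 were lower (median -0.41), with sums of 1603 to 3396 FPKM beside 2399.6 to 4409. The lowest p were those of Notch3 (0.592 times), Cox4i2 (0.482 times) and Ndufa4l2 (0.373 times). Of 10 fibroblast markers tested 5 were lower (median -0.86), with sums of 2738 to 4473 FPKM beside 3513 to 6015. Pi16 was at 0.285 times control, Fbln1 at 0.301 times and Dpt at 0.566 times, while Pdgfra, which fibroblasts carry, had a higher mean in uremia. Leaving out rat 41 or 42 left 2 pericyte markers lower, and leaving out rat 41, 44, 20 or 28 left 4 smooth muscle markers lower. Of 11 endothelial markers 1, Cldn5, was called, a share lower close to that of all genes, and the median was 0.11. It was called neither without rat 41, 42, 44 or 46 of the controls nor without rat 9, 17, 20 or 28 of the uremic rats, and 3 markers were lower without rat 27. Endothelial sums were 218 to 381 FPKM in uremia and 227 to 301 in control.

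Macrophage markers went the other way, with 11 of 12 higher and none lower (median 1.64), beside 11.4% and 10.5% of all genes tested. Their summed level was 562 to 789 FPKM in uremia, 75.6 to 183 in control and 83.9 to 175 in control with vitamin D, without overlap. Lyz2 was 7.81 times as high as in control, Cd14 4.19 times and Cd68 4.17 times. Msr1, also called, was at 2.15 to 5.51 FPKM in uremia and 0 to 1.58 in control, and passed the filter through its uremic libraries. Macrophages are a known source of PDGF ligands, and their part in the ligand levels was not tested. Red cell markers had a median of 1.61 with none of 5 called, or 3 higher without rat 43, and their sums spread widely, from 732 to 9353 FPKM in uremia and from 112 to 5993 in control. Platelet sums were 21.9 to 88.1 FPKM in uremia and 9.35 to 51.1 in control, of which Pf4 gave 91.9% over all libraries, and the list median was 0.09. White adipocyte markers had Cfd higher (6.06 times) and Lep lower (0.168 times) of 7 tested, beside the same shares of all genes, with a median of -0.18. Brown adipocyte markers had Ucp1 lower (0.218 times) of 6, beside 10.5% of all genes, with a median of -0.45. Without rat 27, 3 of them were lower. Of 4 heart muscle markers Tnni3 was called higher, beside 11.4% of all genes, but not without rat 43, 20, 27 or 28. It was at 0.913 to 3.66 FPKM in uremia and 0 to 0.548 in control, so it entered the test only through uremic libraries. The heart muscle list had a median of 0.51 and sums of at most 22.9 FPKM.

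Against control with vitamin D, 7.19% of all genes tested were higher in uremia and 6.03% lower. Smooth muscle markers were lower in 2 of 10, Myocd (0.412 times) and Cnn1 (0.592 times), with a median of -0.53. Neither was called without rat 36 or without rat 38, and 3 were lower without rat 37. No pericyte marker of 10 was called (median -0.17). Of 10 fibroblast markers Lum was higher (1.59 times) and Pi16 lower (0.479 times), with a median of -0.10, and of 11 endothelial markers Pecam1 was higher (1.71 times), with a median of 0.31. Lum was not called without rat 28, 36 or 38, Pi16 not without rat 9, 17, 28, 36, 38 or 39, and Pecam1 not without rat 9, 17, 20, 36, 37, 38 or 39. Macrophage markers were again higher in 11 of 12 (median 1.60), with Lyz2 at 9.46 times. Msr1 needed uremic libraries to enter that comparison as well. Brown adipocyte markers were lower in 5 of 6 (median -1.74), led by Ucp1 at 0.125 times, and without rat 38, 1 was lower. None of the platelet (median -0.26), white adipocyte (-1.21), red cell (1.93) or heart muscle (0.20) markers was called, but 4 white adipocyte markers were lower without rat 27 and 3 red cell markers were called without rat 28. Between the groups without uremia, the markers called were Col1a1 (0.428 times) and Col3a1 (0.529 times), collagens of fibroblasts, lower with vitamin D, and Cfd (3.03 times), of fat, higher, among the 13 genes called of all tested (0.134%). None of the 3 was called when rat 41, 42, 43, 44, 36, 37 or 38 was left out. Without rat 46 there were 3 fibroblast markers lower and 5 white adipocyte markers higher. Without rat 39 there were also 3 fibroblast markers lower, and 5 brown adipocyte markers were higher. With all rats, list medians between these groups were 1.05 for brown adipocyte, 0.95 for white adipocyte and -0.68 for fibroblast markers, beside 0.00 for all genes. None of the 7 lists of the PDGF pathway and its relatives held a called gene there.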

How the data were processed

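Aortic polyadenylated RNA of 14 rats, 1 library each, was sequenced. The authors worked with Cuffdiff, Cufflinks 2.1.1, TopHat2 2.0.10, cutadapt 1.3 and build rn5, per the submitters' processing notes; settings are not given in the sources used here. The deposited table names no unit. They were taken as FPKM, the output unit of the authors' tools, scaled by transcript length and library size, so that a library dominated by a few genes lowers the others. The q values, a form of adjusted p-value, come from the authors' deposited table and were used only for comparison. Of 11294 genes above 0 in at least 8 libraries, 96.7% gave whole reads within a tolerance of 0.1 read, and of 1000 genes with shuffled libraries 0 did. Over 10917 genes the libraries held 1331432 to 4540548 reads, with a median of 55 per gene and library; the step of rat 27 was smaller than the others' and was rescaled. No counting intervals are given, since reads copied by PCR are not independent and the error used is the spread between rats.

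Groups follow the labels. Genes reaching 1 FPKM in 4 or more libraries of a comparison were tested on log2(FPKM + 1) by limma 3.58.1 in R 4.3.3 (lmFit and eBayes with a trend, 2-sided, the 2 groups compared), with Benjamini-Hochberg adjustment over all genes tested and a threshold of 0.05. Folds are ratios of group means, and differences of low genes are understated by the pseudocount of 1. The fit was tested on simulated data. Permutation tests were exact and 2-sided over rats. The rest was done in Python 3.11.15 (pandas 2.3.3, numpy 2.4.6 and, for figures, matplotlib 3.10.9). The members and the 17 gene lists were chosen with earlier results of these data known. Named genes are the 6 members, up to 3 tested genes per list with the smallest p in a comparison, and the 3 genes most like each member, of which some are not reported here. Plg, Furin, Fos, Egr1 and, against control with vitamin D, Plat were named after their values were seen. List genes that are missing from the table were not analysed here. Sequences are RefSeq's (GRCr8). Tried as alternatives were other pseudocounts, filters and scalings, 1 fit for all groups, library weights, robust shrinkage, a brown fat covariate, limma voom on recovered reads and leaving out each rat.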

Additional observations from a re-analysis of the deposited data

Results flagged for a closer look

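In 3 of 24 sets of 4 or 5 values, 1 set per group for each member, the summed ligands and the ratio of the receptors, 1 rat lay far from the others by Dixon's criterion, where chance gives about 1 in 20. Pdgfa in control rat 44 was 140.6 FPKM, and the next control rat had 67.8 FPKM. The summed ligand level of the same rat was 151.1 FPKM, with 74.8 FPKM next, and Pdgfa is most of that sum. Rat 44 also had no recovered read of Pdgfc and the lowest Pdgfra of the control group. Without it, the uremic difference in Pdgfa from control was 1.4 on the log2 scale with a limma adjusted p of 0.0123. Pdgfc in uremic rat 28 was 7.197 FPKM, and the next uremic rat had 3.51 FPKM. Without it the difference from control was 1.09 with a limma adjusted p of 0.0213.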

How the results depend on the processing

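Of 380 recomputed member values, 318 kept their direction and their side of the threshold, 38 lost the call, 7 gained it and 17, none of them called, changed sign. Of 2176 list counts, 1951 stayed within 1.5 times; the cause of the changes was not tested. Pdgfc was called in every omission of a rat. In uremic against control, Pdgfa was 1.15 but not called without a filter or with robust shrinkage and 0.71 with the brown fat covariate; Pdgfc was 3.06 and not called with a pseudocount of 0.01; Pdgfd was 0.61 with equal totals and 0.50 with quantile scaling, not called in either; Pdgfrb was 0.43 and called with quantile scaling; Pdgfb turned to 0.14 with the covariate. In uremic against control with vitamin D, Pdgfa was 1.37 without a filter and 0.16 with the covariate, Pdgfc 1.58 with the covariate, and Pdgfd 0.67 with equal totals, 0.57 with quantile scaling, 0.61 with library weights and 1.10 with voom, none of them called. Pdgfra was called with voom at 0.96 and had p = 0.0476, unadjusted, in the exact permutation test at 0.84. Pdgfb turned to 1.08 with the covariate and 0.19 with voom, and Pdgfrb to -0.19 with the covariate. In control with vitamin D against control, the covariate turned Pdgfa to 0.55 and Pdgfrb to 0.24, and library weights turned Pdgfd to 0.01.

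Counts of called genes moved most between the groups without uremia, from 13 to 3 without a filter, 8 with quantile scaling, 20 with the covariate and 429 with library weights. Against control with vitamin D the 1311 called in uremia became 539 with the covariate and 1999 with library weights. Without 1 rat, log2 differences ranged against control from 0.87 to 1.4 for Pdgfa, 0.58 to 0.78 for Pdgfd and 0.20 to 0.40 for Pdgfrb. Against control with vitamin D they ranged from 1.06 to 1.60 for Pdgfa, -0.46 to 0.31 for Pdgfb, 0.65 to 0.89 for Pdgfd and 0.69 to 0.99 for Pdgfra, with 659 to 1662 genes called. Between the groups without uremia they were -0.43 to 0.09 for Pdgfa, -0.56 to 0.20 for Pdgfb, -0.21 to 0.03 for Pdgfd and -0.23 to 0.03 for Pdgfrb, with 0 to 393 genes called, the most without rat 39 and 385 without rat 46.

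No paired analysis was possible because the groups share no rat number. Depth limits Pdgfc and Pdgfd, which rest on few reads per library. Wide intervals, set by the spread between rats, limit the statements on Pdgfb and the receptors. Groups differ in uremia and vitamin D and in marker levels of smooth muscle, macrophages and fat.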
